A study of Mus musculus with 43 samples.

Results

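The genes described here are Mc3r, Mc4r and Ghsr, which encode the melanocortin 3 receptor, the melanocortin 4 receptor and the growth hormone secretagogue receptor, the receptor for ghrelin. They are the 3 rows of 10127 in the expression table whose Ensembl identifiers map to these symbols, and all 3 were found. RNA sequencing was performed on laser-captured tissue of the arcuate nucleus (ARC), dorsomedial hypothalamus (DMH), paraventricular nucleus (PVN) and ventromedial hypothalamus (VMH). The mice were adult males whose strain is written as C57/BL6 in the sample labels. They carried a germline deletion of the Snord116 cluster on the paternal allele. These small nucleolar RNAs, part of the Prader-Willi locus, are transcribed from that allele. The mice were either fed ad libitum or fasted for 24 hours before tissue was taken. Every mouse used here carried the deletion, so the comparisons are between nuclei and between nutritional states, and not between genotypes.

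Melanocortin receptors are coupled to the stimulatory G protein and are activated by α-MSH, a peptide cut from the Pomc product, while the Agrp peptide opposes it. Mc4r in the hypothalamus restrains feeding, and its loss gives hyperphagia and obesity. Mc3r acts more on the response to fasting and on energy partitioning, and is known in ARC neurons that express Agrp and Npy. The ghrelin receptor is coupled to Gq, is bound by the stomach hormone ghrelin, and drives the same ARC neurons when an animal has not eaten.

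Mc3r (ENSMUSG00000038537) lies on chromosome 2 at 172248492 to 172251114 on the plus strand of GRCm38, as 1 exon of 2623 bases. Mc4r (ENSMUSG00000047259) lies on chromosome 18 at 66857704 to 66860506 on the minus strand, also as 1 exon, of 2803 bases. Ghsr (ENSMUSG00000051136) lies on chromosome 3 at 27371351 to 27378010 on the plus strand and has 3 exons with 4433 exonic bases in all. None of the 3 overlapped another annotated gene in GENCODE M21.

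There were 41 libraries from 12 mice, 6 fasted and 6 fed, and a library is named by its nucleus and mouse, as in ARC-86. The ARC gave 4 fasted and 5 fed libraries, the DMH 5 and 6, the PVN 5 and 5, and the VMH 6 and 5. Depth ran from 1.94 to 8.23 M reads per library (M, mega), with a median of 4.10 M, and values are in CPM, which are read counts scaled to the library total. Capture and library preparation ran in 3 batches of 10, 15 and 16 libraries. The nucleus labels were checked against genes that define each nucleus. Npy and Crabp1, 2 of the 6 ARC genes listed, summed to 324 to 1495 CPM in ARC libraries and to at most 41.5 CPM elsewhere. Npvf, 1 of 3 DMH genes, ran from 56.5 to 225 CPM in the DMH and reached at most 6.31 CPM elsewhere. Avp and Crh, 2 of 5 PVN genes, summed to 426 to 1600 CPM in the PVN and to at most 10.04 CPM elsewhere. Fezf1 and Sox14, 2 of 4 VMH genes, summed to 192 to 270 CPM in the VMH and to at most 21.9 CPM elsewhere. The DMH captures also held 203 to 800 CPM of Hcrt and Pmch, the orexin and melanin-concentrating hormone genes of the neighbouring lateral hypothalamus, against at most 87.8 CPM in the other nuclei.

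All 3 receptors were genes of low read number. Mc3r had 0 to 194 reads per library with a median of 34, and fewer than 10 reads in 12 of 41 libraries. Mc4r had 0 to 90 reads with a median of 10, and fewer than 10 reads in 18 libraries. Ghsr had 4 to 301 reads with a median of 32, and fewer than 10 reads in 3 libraries. Mc3r was at 0 in 1 library, PVN-86 of a fasted mouse, where the absence of a read allows a level of up to 0.567 CPM at 3 reads. Mc4r was at 0 in 2 libraries, both from the fed DMH, DMH-111 (limit 1.02 CPM) and DMH-127 (limit 0.578 CPM). Ghsr was above 0 in every library. The squared deviation of the reads from those expected at a common level was between 4.19 times (Mc4r in the VMH) and 32.2 times (Ghsr in the ARC) the counting error, over the separate mice of both states. Limits of this kind cover counting error only, since reads from amplified RNA are not separate molecules.

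**Figure D1:**
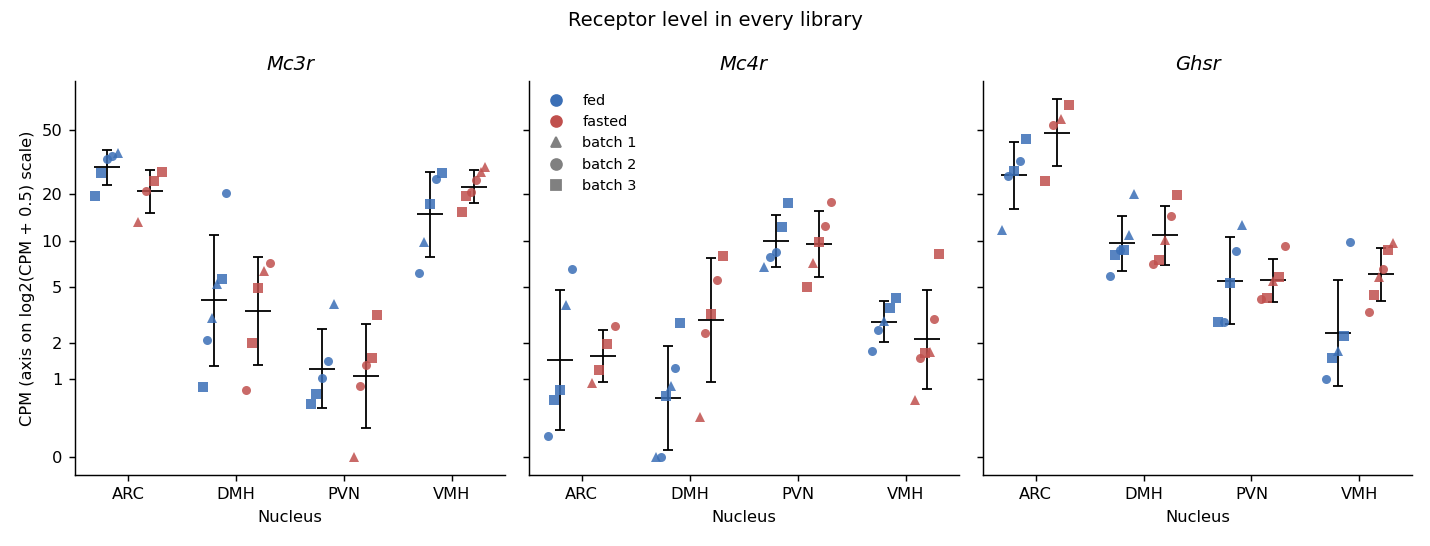
CPM of Mc3r, Mc4r and Ghsr in each of the 41 libraries by nucleus, on a log2(CPM + 0.5) axis, with blue points for fed and red points for fasted mice and the marker shape for the batch. Bars give the mean and SD of the log2 values of each group. Mc3r stood high in ARC and VMH, Mc4r in PVN and Ghsr in ARC.

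Mc3r, the melanocortin receptor known in ARC neurons, was highest in the ARC and the VMH. Its mean level was 26.2 ± 7.52 CPM in the ARC (SD, n = 9), 20.1 ± 7.43 CPM in the VMH (n = 11), 5.32 ± 5.41 CPM in the DMH (n = 11) and 1.45 ± 1.19 CPM in the PVN (n = 10). The ARC mean was 1.30 times the VMH mean, 4.92 times the DMH mean and 18.1 times the PVN mean. In bulk tissue of this kind, fewer cells that express a receptor and less RNA per cell cannot be told apart.

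In the ARC, Mc3r was 13.4, 20.9, 24.1 and 27.4 CPM in fasted libraries ARC-86, ARC-100, ARC-311 and ARC-305, and 19.5, 27.0, 32.9, 34.7 and 35.9 CPM in fed libraries ARC-308, ARC-313, ARC-125, ARC-127 and ARC-111. In the VMH, the 6 fasted libraries ran from 15.5 CPM to 29.4 CPM with a median of 22.5 CPM, and fed libraries VMH-125, VMH-111, VMH-308, VMH-127 and VMH-313 had 6.21, 9.89, 17.2, 24.7 and 26.9 CPM. The ranges of these nuclei overlapped, and the lowest library of either was VMH-125. In the DMH, fasted libraries DMH-101, DMH-305, DMH-311, DMH-86 and DMH-100 had 0.790, 2.01, 4.97, 6.42 and 7.23 CPM, and the 6 fed libraries ran from 0.848 to 20.2 CPM with a median of 4.14 CPM. In the PVN, Mc3r was 0, 0.870, 1.33, 1.53 and 3.23 CPM in fasted libraries PVN-86, PVN-101, PVN-100, PVN-305 and PVN-311, and 0.551, 0.714, 1.02, 1.43 and 3.804 CPM in fed libraries PVN-308, PVN-313, PVN-125, PVN-127 and PVN-111. The highest DMH library, DMH-125 of a fed mouse, lay inside the ARC range, while all 10 PVN libraries lay below every ARC and every VMH library.

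Mc4r, the receptor whose loss causes obesity, had its highest level in the PVN. It averaged 10.6 ± 4.43 CPM there (n = 10), against 2.88 ± 2.06 CPM in the VMH (n = 11), 2.29 ± 2.54 CPM in the DMH (n = 11) and 2.09 ± 2.04 CPM in the ARC (n = 9). The PVN mean was 3.67 times that of the VMH, 4.62 times that of the DMH and 5.07 times that of the ARC. It was the lowest of the 3 receptors in total reads, with 75 reads summed over all 9 ARC libraries and 470 over all 10 PVN libraries.

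In the PVN, Mc4r was 5.04, 7.18, 9.93, 12.6 and 17.8 CPM in fasted libraries PVN-311, PVN-86, PVN-305, PVN-101 and PVN-100, and 6.79, 7.88, 8.57, 12.4 and 17.6 CPM in fed libraries PVN-111, PVN-125, PVN-127, PVN-308 and PVN-313. The fasted and fed PVN libraries covered much the same range. In the ARC it was 0.912, 1.21, 1.97 and 2.68 CPM in fasted libraries ARC-86, ARC-311, ARC-305 and ARC-100, and 0.169, 0.622, 0.794, 3.798 and 6.61 CPM in fed libraries ARC-125, ARC-308, ARC-313, ARC-111 and ARC-127. In the DMH, fasted libraries DMH-86, DMH-101, DMH-311, DMH-100 and DMH-305 had 0.377, 2.37, 3.24, 5.56 and 8.03 CPM, and the 6 fed libraries ran from 0 to 2.79 CPM with a median of 0.774 CPM. In the VMH, the 6 fasted libraries ran from 0.612 to 8.25 CPM with a median of 1.68 CPM, and fed libraries VMH-125, VMH-127, VMH-111, VMH-308 and VMH-313 had 1.73, 2.50, 2.91, 3.62 and 4.23 CPM. Levels under 1 CPM occurred in 4 ARC, 5 DMH and 1 VMH libraries, and in no PVN library.

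Ghsr, the ghrelin receptor, was highest in the ARC. It averaged 38.9 ± 19.3 CPM in the ARC (n = 9), 11.1 ± 4.91 CPM in the DMH (n = 11), 6.14 ± 3.17 CPM in the PVN (n = 10) and 5.01 ± 3.36 CPM in the VMH (n = 11). The ARC mean was 3.51 times the DMH mean, 6.32 times the PVN mean and 7.75 times the VMH mean.

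In the ARC, Ghsr was 24.0, 53.9, 59.0 and 71.2 CPM in fasted libraries ARC-305, ARC-100, ARC-86 and ARC-311, and 11.8, 25.9, 27.8, 32.2 and 44.0 CPM in fed libraries ARC-111, ARC-125, ARC-313, ARC-127 and ARC-308. In the DMH, fasted libraries DMH-101, DMH-305, DMH-86, DMH-100 and DMH-311 had 7.11, 7.53, 10.2, 14.5 and 19.6 CPM, and the 6 fed libraries ran from 5.97 to 20.1 CPM with a median of 8.74 CPM. The 2 states overlapped in both of these nuclei, and 3 of the 4 fasted ARC libraries lay above every fed one. In the PVN it was 4.13, 4.199, 5.48, 5.85 and 9.29 CPM in fasted libraries PVN-101, PVN-305, PVN-86, PVN-311 and PVN-100, and 2.85, 2.86, 5.37, 8.64 and 12.8 CPM in fed libraries PVN-313, PVN-127, PVN-308, PVN-125 and PVN-111. In the VMH, the 6 fasted libraries ran from 3.35 to 9.80 CPM with a median of 6.23 CPM, and fed libraries VMH-127, VMH-313, VMH-111, VMH-308 and VMH-125 had 1.00, 1.52, 1.74, 2.26 and 9.84 CPM. In that nucleus 4 of the 5 fed libraries lay below every fasted one, and the fifth, VMH-125, lay above them all.

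Levels of the 3 receptors can be compared with each other only per length of transcript. Per kilobase of exon, Mc3r had 9.99 CPM in the ARC and 7.68 CPM in the VMH, which put it at the 72.9th and 66.1st percentile of the 9891 genes with a known length. Ghsr followed in the ARC with 8.77 CPM per kilobase, at the 69.7th percentile, whereas Mc4r was at 0.744 CPM per kilobase there, at the 11.8th percentile. In the PVN the order was different: Mc4r was at 3.77 CPM per kilobase (46.3rd percentile), Ghsr at 1.39 (22.5th) and Mc3r at 0.551 (8.52nd). In the DMH, Ghsr and Mc3r were at 2.50 and 2.03 CPM per kilobase, above Mc4r at 0.816. In the VMH, Mc3r exceeded Ghsr (1.13 CPM per kilobase) and Mc4r (1.03).

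The nuclei were then compared within mice, with limma on log2(CPM + 0.5) and the mouse as a block, since several nuclei came from all but 2 animals. The adjusted p-value is over all 10121 genes tested in each comparison (Benjamini-Hochberg), with a threshold of 0.1. The same tests called 17.6% of all genes between DMH and ARC, 16.9% between PVN and ARC, 30.2% between VMH and ARC, 18.5% between PVN and DMH, 22.6% between VMH and DMH and 31.9% between VMH and PVN. Of the 18 differences of the receptors, 13 passed, 5 of 6 for Mc3r, 3 of 6 for Mc4r and 5 of 6 for Ghsr. Libraries of the pair of nuclei did not overlap in 3 of the 18, which were Mc3r between PVN and ARC and between VMH and PVN, and Ghsr between VMH and ARC. The share of all genes without overlap was 1.30% for DMH and ARC, 2.50% for PVN and ARC, 3.91% for VMH and ARC, 1.30% for PVN and DMH, 2.22% for VMH and DMH and 3.99% for VMH and PVN.

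**Figure D2:**
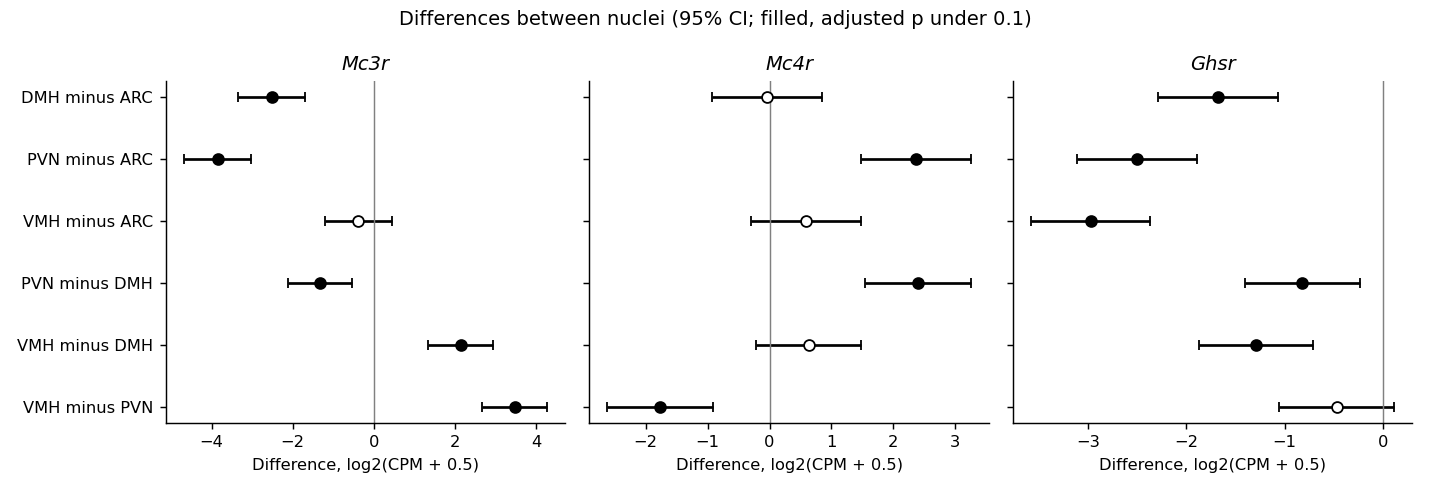
Differences in log2(CPM + 0.5) between each pair of nuclei for Mc3r, Mc4r and Ghsr, with 95% confidence intervals from limma with the mouse as a block. Filled points passed an adjusted p of 0.1; the open ones are Mc3r between VMH and ARC, Mc4r among ARC, DMH and VMH, and Ghsr between VMH and PVN.

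For Mc3r, the level in the PVN was below that in the ARC by a log2 difference of −3.85 ± 0.41 (SE, limma adjusted p = 1.59e-09), and the ARC was the higher in all 9 mice with both nuclei. The DMH was also below the ARC, with a difference of −2.52 ± 0.41 (adjusted p = 1.62e-05) and again 9 of 9 mice. The VMH exceeded the PVN by 3.47 ± 0.39 (adjusted p = 3.51e-09, 10 of 10 mice) and the DMH by 2.14 ± 0.39 (adjusted p = 7.02e-05, 9 of 10 mice). The exception was 1 fed mouse, with 20.2 CPM in DMH-125 and 6.21 CPM in VMH-125. These captures held 57.6 CPM of Npvf and 256 CPM of Fezf1, within the range of the other libraries of their nuclei, but the 149 CPM of Pmch in DMH-125 was the lowest of the DMH, where the others had 164 to 631 CPM. The PVN was below the DMH by a difference of −1.33 ± 0.39 (limma adjusted p = 0.0170), with 2 of 10 mice the other way. This difference was no longer called in fed mice alone (adjusted p = 0.198) or fasted mice alone (adjusted p = 0.117). The VMH and the ARC did not differ beyond their spread, with a difference of −0.38 ± 0.41 and a 95% interval of −1.21 to 0.45 (adjusted p = 0.556). The order of Mc3r was therefore ARC and VMH, then DMH, then PVN. Of 9 mice with all 4 nuclei, 7 had their highest Mc3r in the ARC and 2 in the VMH, and 8 had their lowest in the PVN.

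For Mc4r, the PVN exceeded every other nucleus, and the others did not separate. The difference was 2.40 ± 0.42 over the DMH (limma adjusted p = 4.87e-05, 10 of 10 mice) and 2.36 ± 0.44 over the ARC (adjusted p = 9.64e-05, 9 of 9 mice). The VMH was below the PVN by a difference of −1.77 ± 0.42 (adjusted p = 0.00123), with 1 of 10 mice the other way. That mouse was fasted, and its library VMH-311 was the shallowest of all, at 1.94 M reads. The VMH against the DMH gave 0.63 ± 0.42 (95% interval −0.22 to 1.48, adjusted p = 0.347), and the VMH against the ARC 0.59 ± 0.44 (−0.29 to 1.48, adjusted p = 0.359). The DMH against the ARC gave −0.04 ± 0.44 (−0.93 to 0.85, adjusted p = 0.974). Of 9 mice with all nuclei, 8 had their highest Mc4r in the PVN.

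For Ghsr, the ARC stood above the rest. The VMH was below it by a log2 difference of −2.97 ± 0.30 (limma adjusted p = 2.46e-10, 9 of 9 mice), the PVN by −2.50 ± 0.30 (adjusted p = 2.56e-08, 8 of 9 mice) and the DMH by −1.68 ± 0.30 (adjusted p = 7.18e-05, 8 of 9 mice). The exception was 1 fed mouse, with 11.8 CPM in ARC-111, 20.1 CPM in DMH-111 and 12.8 CPM in PVN-111. Below the ARC, the DMH led the VMH, with a difference of −1.29 ± 0.29 for VMH minus DMH (adjusted p = 0.000885), which was not called in fasted mice alone (−0.79, adjusted p = 0.15). The DMH also led the PVN, with −0.82 ± 0.29 for PVN minus DMH (adjusted p = 0.0502), in 10 of 10 mice. That call was lost without the mouse of DMH-311 (−0.73, adjusted p = 0.138), without that of DMH-313 (−0.74, adjusted p = 0.125) and in fed mice alone (−0.72, adjusted p = 0.460). The VMH and the PVN did not differ beyond their spread (−0.47 ± 0.29, 95% interval −1.05 to 0.11, adjusted p = 0.248).

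An exact sign-flip permutation test over the mice with both nuclei, 2-sided, gave an unadjusted p under 0.05 in 13 of the 18 differences, the same 13 that passed with limma. It was 0.00391 for Mc3r between DMH and ARC and for Mc4r between PVN and ARC, and 0.00781 for Ghsr between DMH and ARC. With 9 mice, 0.00391 is the smallest value that this test can give. Other cells of the captures also differed between nuclei. The oligodendrocyte genes, 5 of 5 measured, summed to 1114 to 1751 CPM in the VMH against 242 to 753 CPM in the ARC, 452 to 1546 CPM in the DMH and 350 to 620 CPM in the PVN. The vessel genes, 3 of 4 measured, summed to 122 to 205 CPM in the PVN and to at most 120 CPM elsewhere. The tanycyte and ependyma genes, 2 of 4 measured, summed to 22.3 to 67.8 CPM in the ARC and to at most 23.5 CPM elsewhere. The neuron genes Syt1 and Tubb3, 2 of 5, summed to 436 to 550 CPM in the ARC, 463 to 544 CPM in the PVN, 572 to 822 CPM in the DMH and 672 to 868 CPM in the VMH. The astrocyte (2 of 5) and microglia (4 of 5) genes overlapped across nuclei, with sums of 45.5 to 164 CPM and 31.4 to 93.7 CPM. The part of these cells in the differences of the receptors was not tested.

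**Figure D3:**
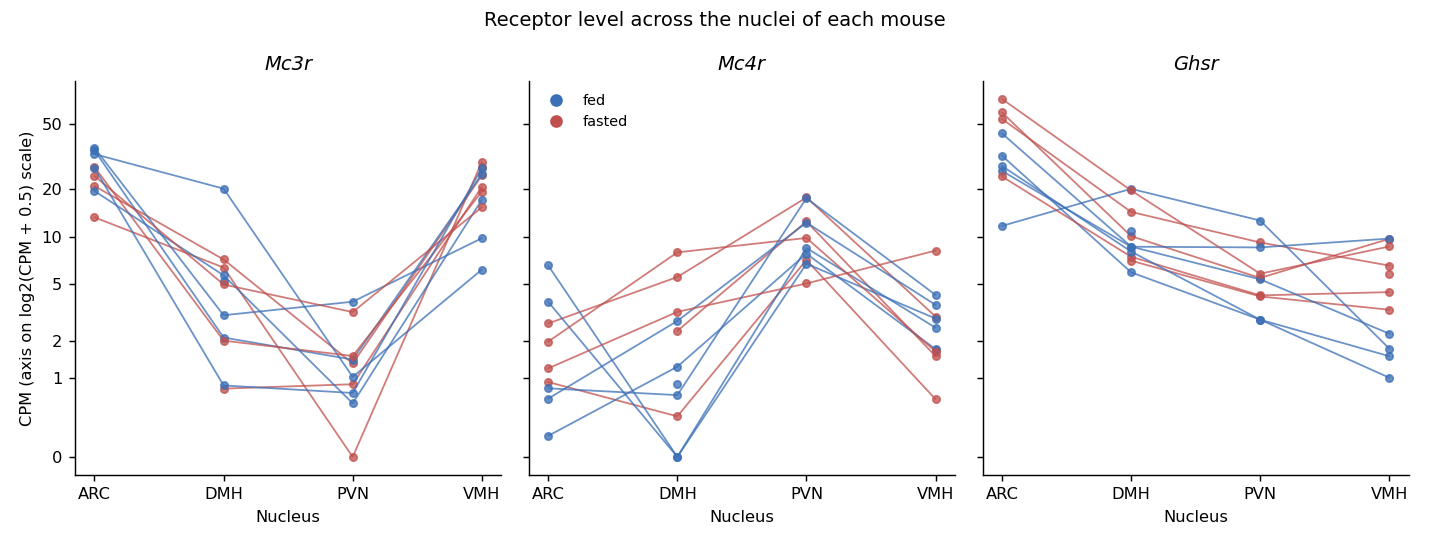
CPM of each receptor across the nuclei of each mouse, on a log2(CPM + 0.5) axis, with 1 line per mouse in blue for fed and red for fasted mice. Lines break or points stand alone where a mouse has no library for a nucleus. Mc3r dips at the PVN, Mc4r peaks there, and Ghsr descends from the ARC.

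Fasted and fed mice were next compared within each nucleus, with limma and batch as a covariate. Between 9529 and 9751 genes were tested per nucleus, of which 0.176% were called in the ARC, 0.0103% in the DMH, 0.367% in the PVN and 0.0208% in the VMH at an adjusted p under 0.1. None of the 12 fasting changes of the receptors passed this threshold. At an unadjusted p under 0.05 there were 3, which were Ghsr in the ARC, Ghsr in the VMH and Mc4r in the DMH. The share of all genes under that unadjusted value was 8.10% in the ARC, 6.62% in the DMH, 9.97% in the PVN and 6.98% in the VMH. Fasted and fed libraries overlapped for each receptor in each nucleus. Among all 10127 genes the share without overlap was 2.07% in the ARC, 0.405% in the DMH, 1.26% in the PVN and 0.474% in the VMH.

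Ghsr averaged 52.0 ± 20.1 CPM in the fasted ARC (SD, n = 4) and 28.3 ± 11.6 CPM in the fed ARC (n = 5), a ratio of 1.84. The log2 difference was 0.91 ± 0.34 (SE, 95% interval 0.20 to 1.62), with a limma p of 0.0148 that became 0.513 after adjustment. Without batch the difference was 0.87, with an exact permutation p of 0.0952 over 126 splits. Within batches the difference was 2.27, 0.89 and 0.24 in batches 1, 2 and 3, where batch 1 held 1 fasted and 1 fed library. Without ARC-305 the difference was 1.31 and passed (limma adjusted p = 0.0861). It was 0.50 without ARC-86 (adjusted p = 0.857), without ARC-111 and in batches 2 and 3 only. These fits gave the same difference because a library left alone in batch 1 carries no weight beside the batch term. ARC-305 also had the lowest Npy of the fasted ARC libraries, at 326 CPM against 636 to 1226 CPM in the others, and the lowest Crabp1, at 136 CPM against 170 to 268 CPM. In these ARC captures the vessel genes summed to 37.8 to 53.2 CPM in fasted and 54.0 to 62.3 CPM in fed mice, and the VMH genes to 2.13 to 5.91 CPM and 6.16 to 12.4 CPM, in neither case with overlap. The sums of the other marker lists overlapped. Each VMH gene alone also overlapped. Fezf1 was at 0.179 to 0.846 CPM in fasted and 0.456 to 6.83 CPM in fed captures, and Sox14 at 1.52 to 5.73 and 4.22 to 8.29 CPM. The part of the vessel and VMH genes in the result was not tested.

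In the VMH, Ghsr averaged 6.47 ± 2.48 CPM in fasted (n = 6) and 3.27 ± 3.70 CPM in fed mice (n = 5). The log2 difference was 1.18 ± 0.55 (95% interval 0.051 to 2.32, limma p = 0.0412, adjusted p = 0.712), and without batch it was 1.20, with an exact permutation p of 0.0498 over 462 splits. The difference was 1.85, 0.41 and 1.51 within batches 1, 2 and 3. Leaving out 1 library at a time, the difference ran from 0.90 without VMH-127 (adjusted p = 0.820) to 1.69 without VMH-125 (adjusted p = 0.505). In the DMH and PVN the means lay close together, at 11.8 ± 5.28 and 10.45 ± 4.998 CPM in fasted and fed DMH and 5.79 ± 2.10 and 6.50 ± 4.24 CPM in fasted and fed PVN. Their differences were 0.23 ± 0.38 (−0.56 to 1.03, adjusted p = 0.946) and 0.00 ± 0.46 (−0.95 to 0.96, adjusted p = 1.000), with −0.53, 0.46 and 0.51 within the batches of the DMH and −1.15, 0.28 and 0.30 in the PVN.

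Mc4r averaged 3.92 ± 2.96 CPM in the fasted DMH (n = 5) and 0.932 ± 1.04 CPM in the fed DMH (n = 6), where both of its zeros were found. The log2 difference was 1.40 ± 0.65 (95% interval 0.058 to 2.74, limma p = 0.0416, adjusted p = 0.752), and without batch it was 1.58, with an exact permutation p of 0.0541 over 462 splits. The difference was 0.08, 2.16 and 1.52 within batches 1, 2 and 3. It was positive without each library in turn, between 1.03 without DMH-127 and 1.84 without DMH-86. DMH-86 was the only fasted library of batch 1, and 1.84 is also the difference in batches 2 and 3 only. The difference was 2.08 with a pseudocount of 0.1 and 0.82 with one of 2. With depth as a covariate it was 1.54 ± 1.25 (limma adjusted p = 0.847) and no longer under 0.05 before adjustment. The PVN genes Avp and Crh summed to 4.53 to 7.51 CPM in the fasted DMH captures and to 1.04 to 3.77 CPM in the fed ones, without overlap. Each gene alone overlapped, with Crh at 1.76 to 6.40 CPM in fasted and 0 to 2.32 CPM in fed captures and Avp at 1.11 to 3.77 and 0.385 to 2.73 CPM. In the PVN itself Avp averaged 800.4 CPM and Crh 36.8 CPM, while in the DMH they averaged 1.7 and 2.203 CPM. The part of neighbouring PVN tissue in the Mc4r values was not tested. In the ARC its mean was 1.69 ± 0.797 CPM in fasted and 2.40 ± 2.76 CPM in fed mice, while the log2 difference had the opposite sign, 0.15 ± 0.73 (−1.38 to 1.68, adjusted p = 0.971). Elsewhere Mc4r differed by −0.06 ± 0.39 in the PVN (−0.87 to 0.76, adjusted p = 0.980) and −0.27 ± 0.55 in the VMH (−1.42 to 0.88, adjusted p = 0.970). Within batches 1, 2 and 3 these were −1.61, 0.55 and 0.77 in the ARC, 0.08, 0.83 and −1.01 in the PVN, and −1.12, 0.04 and −0.02 in the VMH.

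Mc3r averaged 21.5 ± 5.99 CPM in the fasted and 30.0 ± 6.78 CPM in the fed ARC, a log2 difference of −0.45 ± 0.29 (95% interval −1.06 to 0.15, limma adjusted p = 0.695). All 4 fasted libraries were below the fed median of 32.9 CPM, and without batch the difference was −0.49, with an exact permutation p of 0.103. The difference was −1.39, −0.68 and 0.16 within batches 1, 2 and 3. In the VMH the means were 22.8 ± 5.23 CPM fasted and 17.0 ± 9.01 CPM fed, with a difference of 0.56 ± 0.35 (−0.17 to 1.29, adjusted p = 0.816) and 1.47, 0.82 and −0.31 within the batches. The DMH gave −0.17 ± 0.65 (−1.52 to 1.18, adjusted p = 0.980) and the PVN −0.15 ± 0.65 (−1.52 to 1.21, adjusted p = 0.969). Within batches these were 0.61, −1.22 and 0.36 in the DMH and −3.11, −0.11 and 1.28 in the PVN, whose batch 1 value contains the library at 0.

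**Figure D4:**
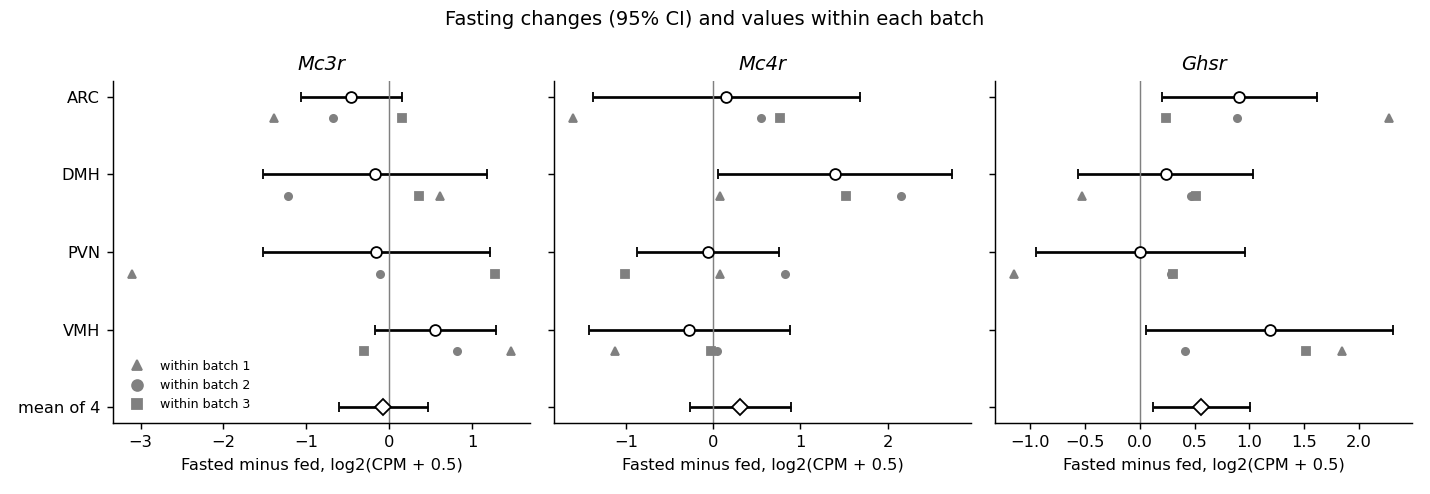
Fasted minus fed difference in log2(CPM + 0.5) for each receptor by nucleus (circles) and as the mean over the 4 nuclei (diamonds), with 95% confidence intervals from limma. Grey marks below each circle give the difference within batches 1, 2 and 3. No change passed an adjusted p of 0.1, and the intervals of Ghsr in ARC and VMH, of its mean, and of Mc4r in DMH lie above 0.

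Whether the fasting change differed between nuclei was tested with an F-test on the nucleus-by-state terms. No gene of 10121 was called (0.00%), and 563 had an unadjusted p under 0.05. For the receptors the limma adjusted p was 0.962 for Mc3r, 0.891 for Mc4r and 0.923 for Ghsr, with unadjusted values of 0.575, 0.105 and 0.171. The fasting change averaged over the 4 nuclei, with batch as a covariate and the mouse as a random block, called 3.18% of all genes, and 13.2% were under 0.05 before adjustment. It was 0.56 ± 0.22 for Ghsr (95% interval 0.12 to 1.00, limma adjusted p = 0.221). Without the fed mouse of VMH-125 it was 0.73 and passed (adjusted p = 0.0621). Mc4r had 0.31 ± 0.29 (−0.27 to 0.90, adjusted p = 0.697) and Mc3r −0.07 ± 0.27 (−0.61 to 0.47, adjusted p = 0.946). Exact permutation of the 12 mice without batch, 924 splits, 2-sided, gave p = 0.0887 for Ghsr, 0.329 for Mc4r and 0.810 for Mc3r.

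The other genes of the pathway came from lists of 68 genes, of which 30 were measured. The others were not analysed here, and nothing can be read about their levels from these counts. Mrap2, an accessory protein that modulates signalling by melanocortin receptors and the ghrelin receptor, averaged 81.1 ± 12.9 CPM in the PVN, 62.2 ± 15.1 CPM in the ARC, 54.1 ± 15.7 CPM in the DMH and 45.0 ± 13.3 CPM in the VMH. Mrap2 was higher in the PVN than in the DMH by 0.63 (limma adjusted p = 0.0113), and the VMH was lower than the PVN (−0.89, adjusted p = 0.000129) and the ARC (−0.49, adjusted p = 0.0469). Gpr83, a receptor known to pair with Mc4r and Ghsr in cells, averaged 48.0 ± 15.1 CPM in the VMH, 26.1 ± 8.71 CPM in the ARC, 15.6 ± 3.90 CPM in the DMH and 6.23 ± 3.36 CPM in the PVN, and all 6 differences passed, the one of VMH minus PVN at 2.88 (adjusted p = 2.56e-14). Neither gene passed in a fasting comparison (limma adjusted p = 0.903 to 0.991 by nucleus), and neither was under 0.05 before adjustment.

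**Figure D5:**
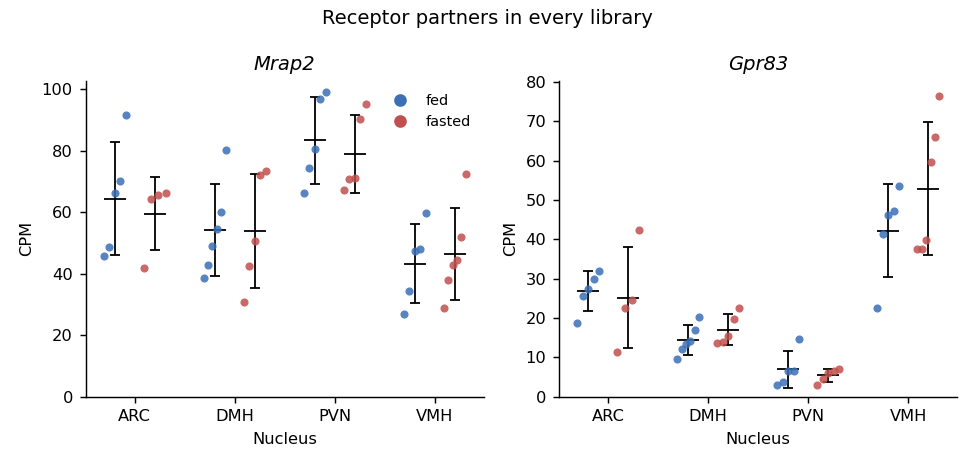
CPM of Mrap2 and Gpr83 in each library by nucleus, on a linear axis from 0, in blue for fed and red for fasted mice, with bars for the mean and SD of each group. Mrap2 was highest in the PVN at a mean of 81.1 CPM and Gpr83 in the VMH at 48.0 CPM.

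Mc1r, the melanocortin receptor of pigment cells, was the other receptor of the family analysed here, at means of 1.57 to 2.98 CPM, and none of its differences between nuclei passed (smallest adjusted p 0.132). Of 11 listed genes for the ligands and their processing, Cpe and Prcp were measured, and Pomc, Agrp and Pcsk1 were not analysed here. Cpe, the carboxypeptidase that trims prohormone products, averaged 1943 ± 425 CPM in the PVN and 1290 ± 278 CPM in the ARC (difference 0.59, limma adjusted p = 1.44e-09). Prcp, which inactivates α-MSH, averaged 11.2 to 15.5 CPM by nucleus and passed in no comparison.

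Of 18 genes listed for signal coupling, 6 were measured, and between VMH and ARC 4 were higher in the VMH and 0 lower, with a median difference of 0.88 against −0.01 over all genes, of which 30.2% were called. In the other pairs 2 were higher and 0 lower in the DMH than in the ARC (median 0.08, 17.6% of all genes called), 2 higher and 1 lower in the PVN than in the ARC (0.02, 16.9%), 0 higher and 2 lower in the PVN than in the DMH (−0.25, 18.5%), 3 higher and 0 lower in the VMH than in the DMH (0.35, 22.6%), and 4 higher and 0 lower in the VMH than in the PVN (0.52, 31.9%). The medians over all genes in these pairs lay between −0.04 and 0.02. Itpr1, the calcium release channel downstream of Gq, was 2.35 higher in the VMH than in the PVN (limma adjusted p = 2.49e-21). Plcb4 and Plcb1, phospholipases that Gq activates, were 1.59 (adjusted p = 5.99e-19) and 1.30 (adjusted p = 2.96e-11) higher in the VMH than in the ARC. In the ARC, Plcb4 averaged 159 ± 38.1 CPM and Plcb1 52.8 ± 11.1 CPM, the lowest means of the 4 nuclei, while Itpr1 was lowest in the PVN, at 90.7 CPM against 173 CPM in the ARC. Of these 6 genes, 0 passed in limma's fasting comparisons. Under 0.05 before adjustment were 1 in the PVN, Gna11, and 1 in the mean over the nuclei, Arrb2, both named after their values were seen, beside 9.97% and 13.2% of all genes.

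Of 15 listed feeding genes that act downstream or in the same neurons, 9 were measured. Npy, the orexigenic peptide of ARC neurons, differed by −7.34 between the DMH and the ARC (limma adjusted p = 3.82e-19). Crh, the corticotropin-releasing hormone gene, differed by −5.73 between the VMH and the PVN (adjusted p = 5.65e-17). Bsx, a homeobox gene of ARC and DMH neurons, differed by −4.70 between the PVN and the DMH (adjusted p = 8.17e-14). Of 15 other receptors for feeding signals, 10 were measured, and between 5 and 7 of them passed in each pair of nuclei, where 16.9% to 31.9% of all genes passed. Cckar, a cholecystokinin receptor, was like Mc4r highest in the PVN, at 54.8 ± 10.9 CPM against 3.11 ± 2.49 CPM in the VMH (−4.40 for VMH minus PVN, adjusted p = 6.22e-14). Htr2c, a serotonin receptor that acts on Pomc neurons, was highest in the DMH at 72.2 ± 15.5 CPM (VMH minus DMH −1.76, adjusted p = 2.76e-12). Npy1r, a receptor for neuropeptide Y, was like Ghsr highest in the ARC, at 89.3 ± 25.4 CPM (DMH minus ARC −2.22, adjusted p = 1.61e-11).

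In the fasting comparisons 3 of 28 tested list genes passed in the ARC, and all 3 rose, where 0.176% of all genes passed. The lists were chosen with earlier results of these data known, so no share of list genes can be read as enrichment. Npy rose by 1.35 ± 0.16 (limma adjusted p = 0.00114), from 267 ± 69.4 CPM in fed to 730 ± 373 CPM in fasted mice. Foxo1, a transcription factor that insulin restrains, rose by 0.76 ± 0.16 (adjusted p = 0.0867), and Lepr, the leptin receptor, by 1.49 ± 0.31 (adjusted p = 0.0867), from 23.9 ± 7.30 to 70.2 ± 26.2 CPM. The difference of Ghsr in the same libraries, 0.91, lay between those of Foxo1 and Npy but had an SE of 0.34. In the other nuclei 0 list genes passed with limma, and at an unadjusted p under 0.05 there were 4 of 30 in the DMH, 6 of 28 in the PVN and 2 of 28 in the VMH, beside 6.62%, 9.97% and 6.98% of all genes. Averaged over the nuclei, Ucp2, a mitochondrial carrier, rose by 0.40 ± 0.085 (adjusted p = 0.00473) and Foxo1 by 0.34 ± 0.098 (adjusted p = 0.0531), while Npy5r, another receptor for neuropeptide Y, fell by 1.05 ± 0.32 (adjusted p = 0.0748).

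Each receptor was finally set beside the genes whose log2(CPM + 0.5) followed it most closely over the 41 libraries, among 7639 genes that averaged 5 CPM or more. The libraries share mice, batches and nuclei, so Pearson's r is given as a description. For Mc3r these were Arhgap36 (r = 0.862), Arhgap6 (0.786), Igsf1 (0.781), Itga11 (0.766) and Plppr4 (0.752). Like Mc3r, Arhgap36 was highest in the ARC and the VMH, at 305.3 and 185.5 CPM, and lowest in the PVN, at 69.9 CPM. For Mc4r they were Abcc9, a subunit of ATP-sensitive potassium channels (0.823), the neuronal adhesion genes Cntn4 (0.711) and Cntnap2 (0.684), Lrpap1 (0.683), and Rxfp3, the relaxin-3 receptor (0.677). Abcc9 averaged 33.6 CPM in the PVN and 11.1 to 13.3 CPM in the other nuclei, and Rxfp3 33.4 CPM in the PVN and 1.98 to 8.91 CPM elsewhere. For Ghsr they were Gabre, a subunit of GABA receptors (0.795), the ARC genes Crabp1 (0.771) and Npy (0.712), Foxo1 (0.764), and the netrin receptor gene Unc5d (0.702). Gabre fell off in the order of Ghsr, with 351 CPM in the ARC, 156 CPM in the DMH, 51.7 CPM in the PVN and 29.6 CPM in the VMH. Among the receptors themselves r was −0.425 for Mc3r and Mc4r, −0.364 for Mc4r and Ghsr, and 0.287 for Mc3r and Ghsr.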

How the data were processed

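Nuclei were captured by laser from stained frozen sections of 12 mice, RNA was amplified (Ovation RNA-Seq System V2), and single-end reads were mapped to GRCm38 with TopHat2 2.0.11 by the authors (labels and methods). Outliers were removed by the authors before deposit. The submitters' processing notes also name Cufflinks 2.2.1, with no role. How reads were assigned to genes, and whether by strand, is not given in the sources used here. The authors deposited CPM per Ensembl gene. The 41 columns used match a sample by nucleus, state and mouse number. Another 2 columns could be matched to no sample and were left aside, as were 2 samples of 43 with no matching column. The table analysed here held 10127 genes, and CPM summed to between 554896 and 689010 per library. It held no gene in a range of Ensembl identifiers that includes Pomc, Agrp and Pcsk1. Percentiles and shares of all genes refer only to genes of this table. Symbols, lengths and coordinates came from GENCODE M21 (GRCm38), which matched 9891 genes. Depth was read from the step of the low values, of which 97.7% to 98.7% were whole multiples within 0.1 read. All 123 values of the receptors came out whole, but 101 genes held values under 0.01 CPM, so no count test was run. A count model, as in the study, was replaced by limma because the values are CPM.

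Tests used limma 3.58.1 in R 4.3.3 on log2(CPM + 0.5), 2-sided, Benjamini-Hochberg adjusted over all genes, threshold 0.1, so changes of low genes are understated. Genes had to reach 1 CPM in at least the number of libraries of the smaller group. Fasting was tested per nucleus with batch as covariate. Nuclei were compared with the mouse as a fixed replicate block, since the numbers in the labels name the animal. Residuals of libraries of the same mouse had a median r of −0.05 over 57 pairs, and those of different mice 0.01. The 2 mice with 1 library carry no weight in that fit. Each library is 1 animal and nucleus, and single values were also tested by exact permutation. The fits were tested on simulated reads. The members and gene lists were chosen with earlier results of these data known. Named list genes were the receptor partners, those past the threshold in a fasting fit, and per list the 3 with the smallest adjusted p between nuclei; the 5 genes most like each receptor were taken by Pearson's r. Alternatives were other pseudocounts, no filter, median ratio scaling, no batch, depth as covariate, library weights, no or random block, 1 state only, each library or mouse left out, and, chosen after seeing the data, batches 2 and 3 only.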

Additional observations from a re-analysis of the deposited data

Results flagged for a closer look

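In each of 24 groups of 4 to 6 libraries, 8 per receptor, the most extreme library was compared with the rest by Dixon's criterion. The criterion was applied to CPM and not to log2 values. Chance alone meets it in about 1.2 of 24 groups if values are normally distributed, and skewed CPM values can meet it more often. The criterion was met in 5 groups, each time by a library above the rest of its group. Mc3r was 20.16 CPM in the fed library DMH-125, against 5.71 CPM in the next library and 0.848 CPM in the lowest. Mc3r was 3.804 CPM in the fed library PVN-111, where the next library had 1.43 CPM. Mc4r was 8.247 CPM in the fasted library VMH-311, the shallowest at 1.94 M (mega) reads, and the next had 3.00 CPM. Ghsr was 20.11 CPM in the fed library DMH-111, with 11.02 CPM in the next library. Ghsr was 9.84 CPM in the fed library VMH-125, with 2.26 CPM in the next library. The mouse of PVN-111 and that of DMH-125 gave 2 of these values each.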

How the results depend on the processing

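Of the 13 receptor differences between nuclei that passed, none changed sign in any alternative, and the call was kept in 267 of 273 alternative fits. These fits include leaving out each of the 2 mice with 1 library. Such mice carry no weight, so the differences could not move in those fits. Calls were lost for Mc3r between PVN and DMH in fed mice alone (−1.33) and in fasted mice alone (−1.33), for Ghsr between PVN and DMH in fed mice alone (−0.72) and for Ghsr between VMH and DMH in fasted mice alone (−0.79), where fewer mice entered. Leaving out each mouse moved Ghsr between PVN and DMH from −0.91 to −0.73. That call was also lost without the mouse of DMH-311 and without that of DMH-313.

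Without the replicate block, or with it as a random effect, the paired analysis changed no call, and Mc4r between DMH and ARC turned from −0.04 to 0.0127 and 0.0128. That difference was also 0.0580 with a pseudocount of 2, 0.75 in fasted mice and 0.45 in batches 2 and 3, while in fed mice it was −0.83. In fasted mice alone, Mc3r between VMH and ARC was 0.19, Mc4r between VMH and DMH −0.34, and Ghsr between VMH and PVN 0.13, all opposite in sign to the full fit and past no threshold. In fed mice alone these were −0.96, 1.61 and −1.07, with the sign of the full fit and also past no threshold.

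Fasting changes near 0 changed sign with the settings. With depth as a covariate Mc4r in the ARC was −0.21, Mc3r in the DMH 0.63, Ghsr in the DMH −0.0654 and Ghsr in the PVN −0.0158. With a pseudocount of 2 Mc4r in the ARC was −0.00924 and Ghsr in the PVN −0.0232, and with median ratio scaling, which shifted libraries by −0.06 to 0.00 log2, Ghsr in the PVN was −0.00165. Mc3r in the PVN was 0.18 with library weights and 0.59 in batches 2 and 3, where Mc4r in the VMH was 0.00979. The cause was not tested. Ghsr in the VMH was 1.20 without batch, with an exact permutation p of 0.0498, while its limma adjusted p ran from 0.505 to 0.953. Mc4r in the DMH ran from 0.82 with a pseudocount of 2 to 2.08 with one of 0.1, and its mean change over the nuclei from 0.16 to 0.53. Leaving out 1 library at a time, Ghsr in the ARC ran from 0.50 to 1.31, past the threshold only without ARC-305, Ghsr in the DMH from 0.00463 to 0.49, Ghsr in the VMH from 0.90 to 1.69, Mc3r in the ARC from −0.65 to −0.17, Mc3r in the VMH from 0.25 to 0.80, Mc4r in the DMH from 1.03 to 1.84, Mc4r in the ARC from −0.31 to 0.68, Mc3r in the DMH from −0.56 to 0.41, Mc3r in the PVN from −0.51 to 0.59, Mc4r in the PVN from −0.27 to 0.23, Ghsr in the PVN from −0.26 to 0.29 and Mc4r in the VMH from −0.60 to 0.00979. Some of these ends stand for a batch and not for 1 library. Where batch 1 kept libraries of only 1 state, the difference was that of batches 2 and 3 only. This holds for 0.50 (Ghsr), −0.17 (Mc3r) and 0.68 (Mc4r) in the ARC, and for 0.49 (Ghsr) and 1.84 (Mc4r) in the DMH. It also holds for 0.59 (Mc3r) and 0.29 (Ghsr) in the PVN and 0.00979 (Mc4r) in the VMH. Leaving out 1 mouse at a time, Mc4r between DMH and ARC ran from −0.34 to 0.34, the mean fasting change of Mc3r from −0.20 to 0.0836, that of Mc4r from 0.0917 to 0.53 and that of Ghsr from 0.39 to 0.73, past the threshold only without the mouse of VMH-125. The adjusted p of the F-test stayed over 0.1 for each receptor in all of its alternatives. Median reads per library ran from 4 for Mc3r in the PVN to 175 for Ghsr in the ARC, and the part of read number in these changes was not tested.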
